A study of Homo sapiens with 2 samples.

Results

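The human mitochondrial ribosomal protein names, gene symbols that start with MRPL for the large or MRPS for the small subunit followed by a number, were followed in the RNA libraries of 95D, a line of human lung cancer cells of wild-type genotype. The members were all names of that form with a numeric value: 30 of the 9253 names with a value, resting on 49 of 18663 transcript rows. A further 20 names of that form, of 50 in the table, had no number in any of their rows and are not counted below. Of the 2 libraries, 1 came from cells kept for 48 h in glutamine-free medium and 1 from cells kept for 48 h in glucose-free medium. Both media held 10% dialyzed serum, and both followed 24 h in complete medium. Each library was taken from its own file, whose column heading names Gln or Glu deficiency. The labels contain a conflict, since the description of the glutamine-deprived sample points to the glucose-deprived column of the joint table. Every direction below rests on the per-sample files being assigned correctly. The labels give total RNA with ribosomal RNA depleted for both, and call neither a pull-down nor an input, although the title and design text of the study speak of immunoprecipitating RNA bound to ALKBH5, an RNA demethylase. Binding to ALKBH5 and cells in complete medium are not analysed here. With 1 library per condition, of 1 cell line, there is no replicate check on any difference, and no p-value is given.

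Mitochondria keep a ribosome of their own, the mitoribosome, which makes the few proteins that the mitochondrial genome encodes, all of them parts of the respiratory chain and the ATP synthase. Its RNA comes from the mitochondrial genome, whereas every one of its proteins is encoded in the nucleus, made in the cytosol and imported. Some of these proteins have counterparts in bacterial ribosomes, and others are found in mitochondria alone. Without working mitoribosomes a cell cannot build a full respiratory chain, and inherited defects in several of the genes, MRPS22, MRPS34 and MRPL3 among them, cause failure of oxidative phosphorylation.

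All 30 names matched a RefSeq symbol of GRCh38.p14, the same genome release as the hg38 build in the submitters' processing notes. By its classes 27 were protein-coding and 3 were not: MRPL20-AS1, an antisense RNA, MRPL20-DT, a divergent transcript, and MRPS31P5, a transcribed pseudogene. RefSeq holds 77 protein-coding symbols of this form, so the 27 are a part of the mitoribosome. Another 14 of the 77 were listed without a number, and 36 are not analysed here. The large subunit was represented by 16 names and the small subunit by 11. Of these 27 proteins, 15 have a bacterial counterpart and 12 are mitochondria-specific. The column of names is headed as long non-coding RNA, and the files give no transcript identifiers. A value under MRPS5, for example, is that of the transcript rows with that name, and whether they hold reads of the MRPS5 messenger RNA cannot be told.

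The members' genes lie on 16 chromosomes. Promoter windows of 250 bases before to 50 after an annotated start were in the RefSeq table for 27 of the 30 names. These 27 are not the 27 protein-coding names. They include MRPL20-AS1 and leave out MRPL13, MRPL20-DT and MRPS31P5. The windows of 3 genes are shown because the results below turn on them. MRPL38 was the only member read in both libraries, and MRPL46 and MRPL20 have another member of the family beside or across them. Each window is written 5′ to 3′ on the gene's strand, with capitals for the letters ATGGCGG, the core of the site of the factor YY1, and CCGGAAG, the core of the site of ETS factors, each on either strand. All 3 genes are on the minus strand.
MRPL38, chr17:75904835-75905134: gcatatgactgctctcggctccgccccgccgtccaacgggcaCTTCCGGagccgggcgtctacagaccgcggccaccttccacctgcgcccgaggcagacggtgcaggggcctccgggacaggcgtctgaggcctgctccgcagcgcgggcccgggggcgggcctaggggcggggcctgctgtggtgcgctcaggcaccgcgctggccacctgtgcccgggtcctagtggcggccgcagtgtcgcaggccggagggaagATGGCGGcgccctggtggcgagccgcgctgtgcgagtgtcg
MRPL46, chr15:88467339-88467638: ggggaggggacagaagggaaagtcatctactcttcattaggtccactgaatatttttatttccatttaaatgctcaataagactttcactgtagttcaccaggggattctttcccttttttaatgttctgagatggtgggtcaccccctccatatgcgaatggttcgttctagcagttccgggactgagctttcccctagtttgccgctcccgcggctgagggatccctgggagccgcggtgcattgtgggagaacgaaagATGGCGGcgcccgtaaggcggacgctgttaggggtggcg
MRPL20, chr1:1407244-1407543: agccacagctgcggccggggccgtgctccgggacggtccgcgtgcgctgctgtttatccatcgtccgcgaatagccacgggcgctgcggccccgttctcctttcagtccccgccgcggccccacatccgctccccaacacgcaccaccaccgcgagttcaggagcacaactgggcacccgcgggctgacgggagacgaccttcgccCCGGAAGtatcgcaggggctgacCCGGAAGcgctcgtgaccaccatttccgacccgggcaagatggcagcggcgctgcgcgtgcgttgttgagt

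The YY1 letters were found on either strand in the windows of 9 of the 27 names (33.3%), against 1819 of 27305 symbols in the whole table (6.66%). MRPL38, MRPL46, MRPL22, MRPS24, MRPS34 and MRPL58 were among the 9. In MRPL38 they ran from base 9 to base 15 and in MRPL46 from base 11 to base 17, counting the annotated first transcribed base as 0. The ETS letters were found in 15 of the 27 (55.6%), against 12.2% of all symbols. MRPL20 held them at 2 places, and MRPL38 at 1. The letters GCGCATG, part of the site of the nuclear respiratory factor NRF1, were in 3 of the 27 windows (11.1%) and in 5.30% of all symbols. Among protein-coding symbols alone the shares were 9.15%, 16.5% and 6.82% for YY1, ETS and NRF1. No match of 1 motif overlapped a match of another in the members. A match is a description of the letters only, and the transcript rows cannot be tied to these start sites.

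The plainest result was that 30 of the 30 names stood above 0 in the glutamine-deprived library and 1 of the 30 in the glucose-deprived library. Over all names the share above 0 was 99.5% in the glutamine-deprived and 4.25% in the glucose-deprived library, so both counts are close to what names in general did. The 95% Wilson interval of the second count, 0.591 to 16.7%, holds the share of all names. The one name above 0 in both was MRPL38, a mitochondria-specific protein of the central protuberance, the knob of the large subunit. The other 29 had a listed 0 in the glucose-deprived library, among them all 11 names of the small subunit. On the log2(value + 1) scale, 29 names were higher by 2-fold or more in the glutamine-deprived library, as were 97.4% of all names, and 1 was higher by 2-fold or more in the glucose-deprived library, as were 1.42% of all names. The 29 pass this line through a listed 0 and the added 1, not through a measured fold, so no fold is given for any of them. In RNA of whole cultures, fewer cells that hold an RNA and less of that RNA per cell cannot be told apart.

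**Figure D1:**
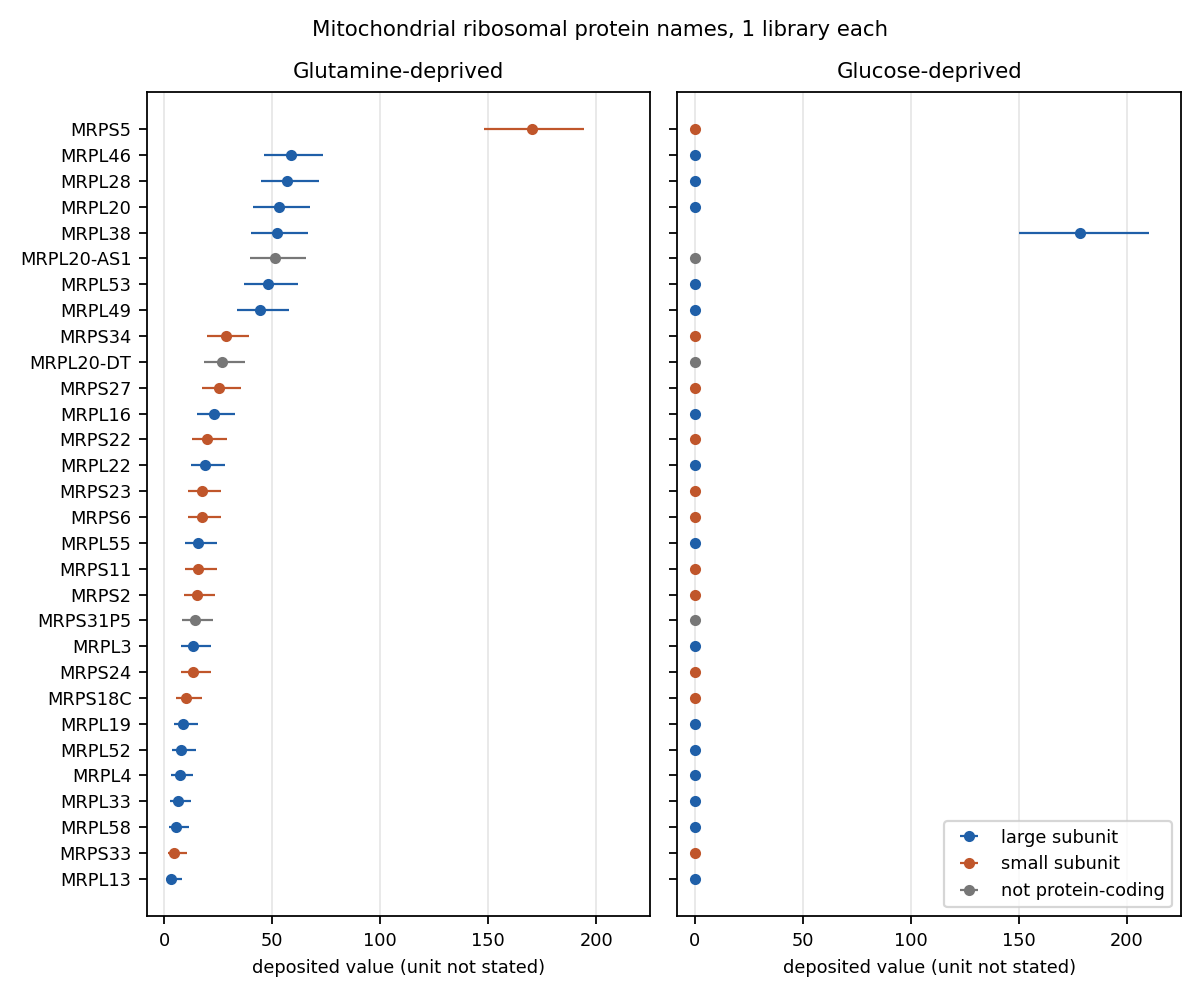
Summed deposited value of each of the 30 names in the glutamine-deprived (left) and glucose-deprived (right) library, with exact 95% Poisson intervals that cover counting error only and colours for the subunit. The values run from 3.15 to 170.0 in the glutamine-deprived library, and MRPL38 at 178 is the only point off 0 in the glucose-deprived library.

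The deposited values have no stated unit. Their low values climb in equal steps, of 0.791 in the glutamine-deprived and 1.26 in the glucose-deprived library, as reads multiplied by 1 factor per library would. Whole reads recovered from these steps came to 1442570 in the glutamine-deprived and 42827 in the glucose-deprived library, a 33.7-fold difference in recovered reads. These sums cover only the 20.3% of rows with a value and are not a measure of sequencing depth. The steps themselves differ 1.60-fold. Copies made by PCR cannot be recognised without molecular identifiers, so the intervals on values and read shares cover counting error only. Intervals on shares of names and on the median log2 ratio are taken across names instead. Of epithelial and lung markers, KRT8 was above 0 in both libraries, at 143 in the glutamine-deprived and 200 in the glucose-deprived one. KRT18 had 75.1 in the glutamine-deprived library and a listed 0 in the other. KRT19 had 42.6 and a listed 0, and NAPSA, a protease of lung epithelium, had 18.9 in the glutamine-deprived and 161 in the glucose-deprived library. Of the 9 names on that list 5 had a value, and EPCAM, CDH1, NKX2-1 and SFTPB had none. Of 4 mesenchymal names, FN1 stood at 963 in the glutamine-deprived and 344 in the glucose-deprived library, and VIM at 75.9 and a listed 0. None of the 6 blood and endothelial markers had a value.

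MRPL38, at chr17:75898644-75904884 on the minus strand, had 7 transcript rows with a value. In the glutamine-deprived library 6 of them were above 0, at 28.5, 14.2, 3.94, 2.35, 1.56 and 1.56. These rest on 36, 18, 5, 3, 2 and 2 recovered reads, so the last 4 rows are barely above the lowest level the library can show. In the glucose-deprived library the seventh row stood at 178 (exact 95% Poisson interval 150.0 to 210), from 141 recovered reads, and the other 6 were listed at 0. The libraries thus shared no transcript row of MRPL38. Summed over its rows, MRPL38 was at 52.1 (40.4 to 66.4) in the glutamine-deprived and 178 in the glucose-deprived library. The intervals do not overlap, and the log2 ratio of the glutamine-deprived over the glucose-deprived library was -1.76.

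As a share of recovered reads, MRPL38 took 0.00458% in the glutamine-deprived library (95% Wilson interval 0.00360 to 0.00582%) and 0.329% (0.279 to 0.388%) in the glucose-deprived library. When both libraries were scaled to a sum of 1000000, its value was 45.7 in the glutamine-deprived and 3292 in the glucose-deprived library, and the log2 ratio was -6.14. The side on which MRPL38 was higher was the same under both scalings, but its size depends on the scaling. The median log2 ratio of the 351 names above 0 in both libraries moved likewise, 0.61 as deposited and -3.77 after rescaling. MRPL38 lay below that median under both. By summed value MRPL38 ranked 53rd of the 393 names above 0 in the glucose-deprived library, and its row ranked sixth of the 99 rows that were above 0 in that library alone. Such rows were 0.53% of all rows with a value and 20.9% of the 474 rows above 0 in the glucose-deprived library. Of the 351 names above 0 in both libraries, 38 (10.8%) shared no row between them, as MRPL38 did.

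**Figure D2:**
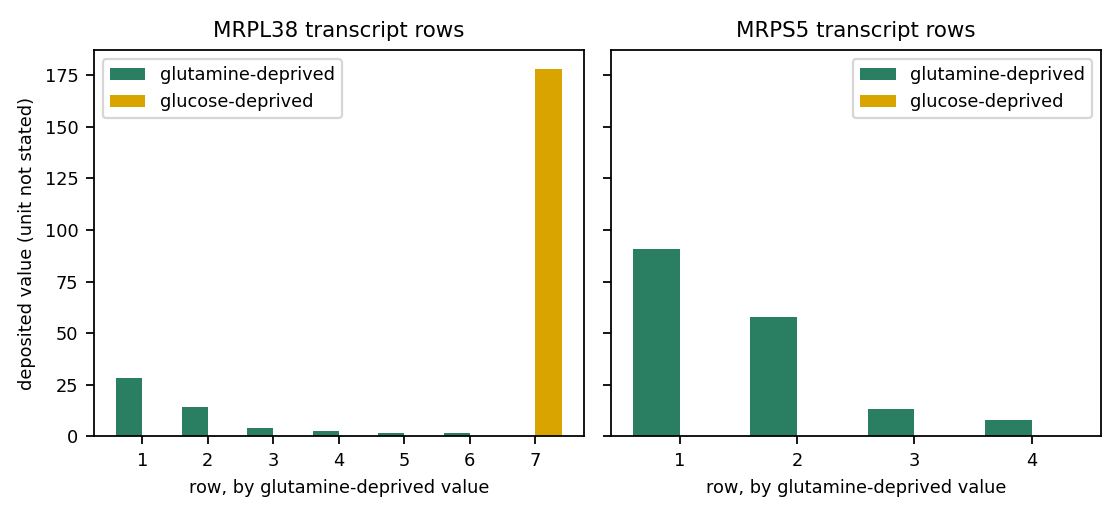
Deposited value of each transcript row of MRPL38 (left) and MRPS5 (right), with bars for the glutamine-deprived and the glucose-deprived library beside each other. For MRPL38 the 6 rows seen in the glutamine-deprived library reach 28.5 and the only bar of the glucose-deprived library is the seventh row at 178, while MRPS5 has bars in the glutamine-deprived library alone.

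A listed 0 in the glucose-deprived library has to be read against the reads recovered there. At its share in the glutamine-deprived library MRPS5, the highest of the 29 names at 0 there, would have 6.38 reads among 42827. Taken as a plain count, a 0 allows up to 3 reads, or a share of 0.00700%. On that reading, a share below the glutamine-deprived one could not be detected singly for the other 28 names, which would have 3 reads or fewer each. At their joint share of 0.0702% in the glutamine-deprived library, the 29 names together would have 30.1 reads. In the glucose-deprived library they had 0. Over all 30 names the share of recovered reads was 0.0748% in the glutamine-deprived library and 0.329% in the glucose-deprived library, where all 141 reads were those of MRPL38. The names that were above 0 in the glucose-deprived library were seldom low. Their median was 81 reads, and 53 of the 393 had 10 reads or fewer. How the listed 0 values arose there is not stated in the sources used here, and the part of depth in them was not tested.

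In the glutamine-deprived library the members had modest values. Their median was 17.4 (quartiles 11.1 and 40.3), against 20.5 (8.68 and 59.3) over all 9253 names, and the median member rested on 22 recovered reads. Values over 100 were held by 1 of the 30 names (3.33%), against 15.8% of all names, and values under 10 by 7 (23.3%), against 28.6%. Among protein-coding names alone the median was 17.4 for the 27 members and 31.6 for the 5643 RefSeq symbols with a value. Values over 100 were held by 3.70% of these members and 21.2% of these symbols, and values under 10 by 25.9% and 20.9%. The values are not divided by transcript length, so their order is an order of values and not of transcript amounts. The 30 names together took 0.0748% of recovered reads (0.0705 to 0.0794%) in the glutamine-deprived library, and 0.122% when the most abundant name of the table was left out of the total. In the glucose-deprived library the family's share was that of MRPL38 alone. The median log2 ratio of the 30 names was 4.13 (order-statistic interval 3.85 to 4.72), beside 4.32 (4.26 to 4.37) over all names. Both mainly carry the value in the glutamine-deprived library and the added 1.

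**Figure D3:**
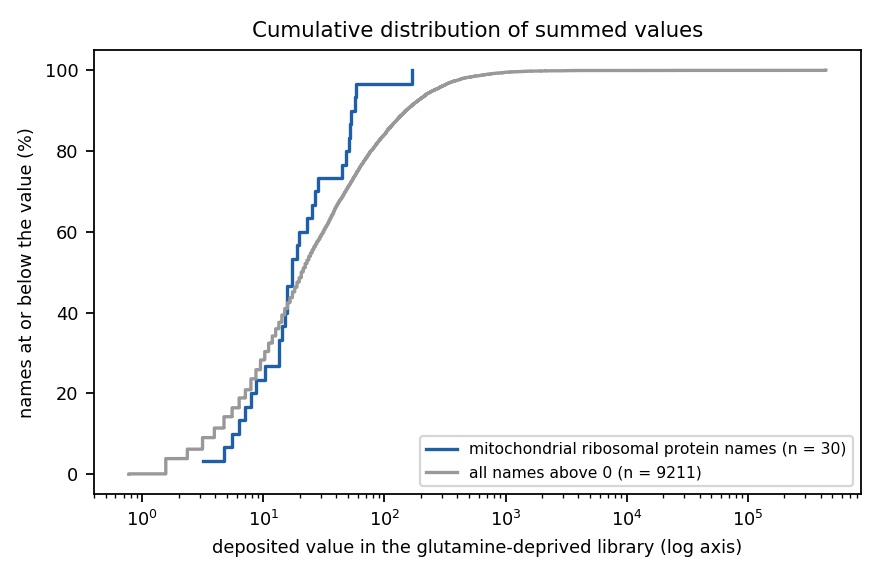
Cumulative percentage of names (y axis) at or below a summed value in the glutamine-deprived library (x axis, log scale), for the 30 members and for the 9211 names above 0. The members end at 170.0 while the curve of all names reaches 442573, and the members' median is 17.4.

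Small-subunit names had values from 4.73 to 170.0 in the glutamine-deprived library and a listed 0 in the glucose-deprived library throughout. MRPS5, whose bacterial counterpart lines the channel through which messenger RNA enters, led all members at 170.0 (148 to 194). Its 4 rows stood at 91.0, 57.7, 13.4 and 7.89. It lies at chr2:95085369-95122003 with no annotated gene overlapping it. MRPS34, a mitochondria-specific protein, followed at 28.5 (19.9 to 39.4), and MRPS27, a pentatricopeptide repeat protein, at 25.3. The interval of MRPS5 lies above that of every other member in this library, while those of MRPS34 and MRPS27 overlap.

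Below them stood MRPS22 at 19.7, spread over 3 rows of 9.47, 5.52 and 4.73. MRPS23 and MRPS6 had the same value, 17.4, from 22 reads each. MRPS11, a protein of the small subunit's platform, stood at 15.7, split over 4 rows, none above 6.31. MRPS2 followed at 15.01, MRPS24 at 13.4, MRPS18C at 10.3 and MRPS33 at 4.73, the last from 6 reads. From MRPS22 down to MRPS18C the counting intervals overlap, so the order of these 7 names is not settled. The median over all 11 was 17.4. The interval of MRPS34 lies above those of MRPS18C (5.48 to 17.6) and MRPS33 (1.74 to 10.3).

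Large-subunit names had values from 3.15 to 58.5 in the glutamine-deprived library. MRPL46, like MRPL38 a mitochondria-specific protein of the central protuberance, led them at 58.5 (46.0 to 73.5), from 1 row. MRPL28, with a bacterial counterpart, stood at 56.9 and MRPL20, whose bacterial counterpart joins early in assembly, at 53.0. MRPL38 came next at 52.1, then MRPL53 at 48.2 over 2 rows of 26.9 and 21.3, and MRPL49 at 44.3. The intervals of these 6 names overlap, so none can be placed above another. Apart from MRPL38, each had a listed 0 in the glucose-deprived library.

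A gap separated these 6 from the remaining large-subunit names. MRPL16, near the peptidyl transferase centre that joins amino acids, stood at 22.9, MRPL22, which lines the tunnel for the growing chain, at 19.0 and MRPL55 at 15.8. MRPL3 was at 13.4, MRPL19 at 8.68 and MRPL52 at 7.89. MRPL4, another protein of the exit tunnel, had 7.10, MRPL33 had 6.31 and MRPL58, a peptidyl-tRNA hydrolase that can free stalled chains, had 5.52. MRPL13 was the lowest member at 3.15, from 4 reads. From MRPL16 to MRPL13 each name rested on 29 reads or fewer, and its part in any ordering is limited by that count.

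Summed by subunit, the 16 large-subunit names held 423 and the 11 small-subunit names 337 in the glutamine-deprived library. MRPS5 alone supplied 170.0 of the small-subunit sum. The median was 17.4 for the names of either subunit. Names with a bacterial counterpart had a median of 15.01 over 15 names, and mitochondria-specific names one of 22.5 over 12. Their ranges, 3.15 to 170.0 and 4.73 to 58.5, overlap through most of their length. In the glucose-deprived library the only name above 0 was of the large subunit and mitochondria-specific, which is 1 of 16 and 1 of 12.

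The 3 names without a protein were above 0 in the glutamine-deprived library alone. MRPL20-AS1 stood at 51.4 and MRPL20-DT at 26.9, beside MRPL20 at 53.0. MRPL20-AS1 at chr1:1399530-1402046 overlaps the end of MRPL20, chr1:1401909-1407293, over 138 bases on the opposite strand. MRPL20-DT, chr1:1408348-1410684, lies 1054 bases beyond the start of MRPL20. Whether counting used strand is not stated, so reads of MRPL20 and MRPL20-AS1 in their overlap cannot be told apart. MRPS31P5, a pseudogene of a small-subunit gene, stood at 14.2 over 2 rows of 7.89 and 6.31, and reads of its parent gene cannot be told apart from its own.

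Overlap with other annotated genes touched 14 of the 30 names, and with a protein-coding gene 6 of them. MRPL49 shares 93 bases with SYVN1, and MRPS34 shares 325 with EME2. MRPS18C shares 2782 bases with ABRAXAS1, and MRPS6 shares 32683 with SLC5A3, a myo-inositol transporter gene. MRPS24 lies over its whole 2960 bases within the readthrough gene URGCP-MRPS24. MRPL46 and MRPS11 are neighbours on opposite strands of chromosome 15, with 319 bases between their starts. MRPL46 was at 58.5 and MRPS11 at 15.7 in the glutamine-deprived library, and each had a listed 0 in the glucose-deprived library. MRPL38 overlapped no annotated gene.

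Most members, 21 of 30 (70.0%), had a value in 1 row only, against 60.5% of all names. Among protein-coding names alone the shares were 70.4% of the members and 46.3% of RefSeq symbols. After MRPL38 with 7 rows came MRPS5 and MRPS11 with 4 each. Row by row, 48 of the 49 were above 0 in the glutamine-deprived library, where 99.5% of all rows were, and 1 was in the glucose-deprived library, where 2.54% of all rows were. The median row stood at 10.3 in the glutamine-deprived library, against 13.4 over all rows. Of the 49 rows, 21 (42.9%) rested on 1 to 10 reads, against 34.4% of all rows. Of the 149 rows listed under such names, 32.9% carried a value, against 20.3% of the 91835 rows of the table. The names listed without a value included MRPS12, MRPS7 and MRPL2, and MRPS30-DT with 10 rows.

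Proteins that work with the mitoribosome were listed separately. DAP3 and PTCD3, which are mitoribosomal proteins of the small subunit under other names, stood at 202 and 104 in the glutamine-deprived library, and each had a listed 0 in the glucose-deprived library. All 20 measured entries of the list of mitoribosome assembly factors were above 0 in the glutamine-deprived library and 0 of 20 in the glucose-deprived library. Over all names 99.5% and 4.25% were above 0, so both counts are close to what names in general did. The list's median was 44.3, with GTPBP6 at 287, MTG1, a GTPase of the large subunit's assembly, at 262, and METTL17, an assembly factor of the small subunit, at 103. LTO1, at 131, is better known for the maturation of a cytosolic protein than for the mitoribosome.

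Of 8 measured translation factors 8 were above 0 in the glutamine-deprived library, as were 99.5% of all names. In the glucose-deprived library 1 was, beside 4.25% of all names. The 1 was LRPPRC, which stabilises mitochondrial messenger RNA, at 749 in the glutamine-deprived and 154 in the glucose-deprived library. Of its 18 rows a single one was above 0 in the glucose-deprived library, and that row stood at 31.6 in the glutamine-deprived and 154 in the glucose-deprived library. TUFM, the mitochondrial elongation factor that delivers tRNA, was at 115, OXA1L, which inserts new chains into the inner membrane, at 62.4 and TACO1, an activator of COX1 translation, at 19.0. All 3 had a listed 0 in the glucose-deprived library.

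Among 13 measured aminoacyl-tRNA synthetases and related enzymes that serve mitochondria, 12 were above 0 in the glutamine-deprived and 2 in the glucose-deprived library. The shares of all names above 0 were 99.5% and 4.25%. GARS1, which serves cytosol and mitochondria alike, stood at 534 in the glutamine-deprived and 104 in the glucose-deprived library. NARS2, the asparaginyl enzyme, had a listed 0 in the glutamine-deprived library and 113 in the glucose-deprived library, in its only row with a value. CARS2 was at 285, RARS2 at 144 and EARS2 at 67.2 in the glutamine-deprived library, all listed at 0 in the other. Of 13 names for mitochondrial transcription and RNA processing, 13 were above 0 in the glutamine-deprived library and 1 in the glucose-deprived library. Both counts are close to the same shares of all names. TBRG4, an RNA-binding protein of the FASTK family, stood at 393 in the glutamine-deprived and 31.6 in the glucose-deprived library. ELAC2, which trims the ends of tRNA precursors, was at 373, FASTK at 259 and POLG, the mitochondrial DNA polymerase, at 123, and each was listed at 0 in the other library. Like MRPL38, each of these 4 names above 0 in the glucose-deprived library was seen there through 1 row. Unlike MRPL38, LRPPRC, GARS1 and TBRG4 had a value above 0 for that row in the glutamine-deprived library too.

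**Figure D4:**
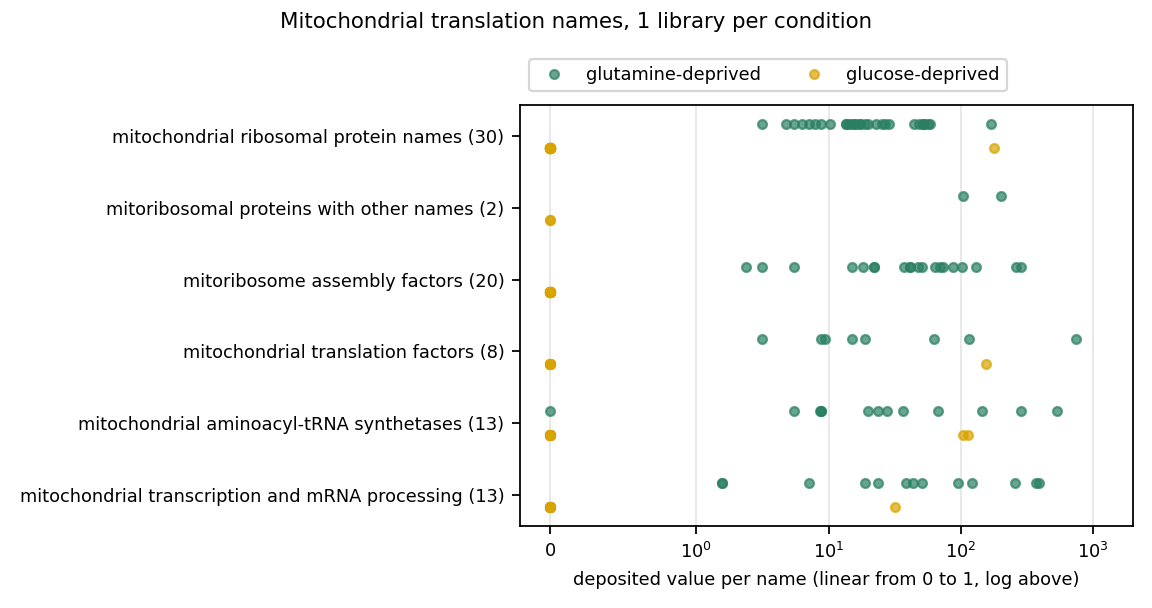
Deposited value of each measured name (points) in the members' list and 5 lists of mitochondrial translation and gene expression, on an axis that is linear from 0 to 1 and logarithmic above, with the glutamine-deprived library above the glucose-deprived one in each list. Most points of the glucose-deprived library lie at 0, and those off 0 are MRPL38, LRPPRC, GARS1, NARS2 and TBRG4.

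Names of the cytosolic ribosome's proteins are set beside the members as values not divided by length. Their 63 protein-coding names had a median of 69.5 in the glutamine-deprived library, where the 30 mitochondrial names had one of 17.4. In the glucose-deprived library 15 of the 63 stood above 0 (23.8%, 95% Wilson interval 14.99 to 35.6%), and 1 of the 30 mitochondrial names did (0.591 to 16.7%), beside 4.25% of all names. The share of the mitochondrial names is near that of all names. The 2 intervals overlap, but they treat the names of 1 library as independent draws, so the overlap does not settle a difference. No test of the difference between the 2 sets of names was made.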

How the data were processed

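Total RNA of 95D cells was measured in 2 libraries, 1 per condition. Per the labels' protocols, rRNA was removed before paired-end sequencing. The submitters' processing notes name HISAT2 2.0.5, StringTie and hg38; how reads were counted, filtered and normalized is not given in the sources used here. The deposited values have no unit in the file headers and are not whole-number counts. Values under 1e-09 were set to 0, rows marked without a number were left out, and rows sharing a name were summed. Reads were recovered by fitting a step and an offset (0.791 and -0.018 for the glutamine-deprived, 1.26 and 0.022 for the glucose-deprived library). Within 0.1 of a read, 100% of the 18536 and 472 values up to 1000 reads were whole. Ratios are log2(value + 1), glutamine-deprived minus glucose-deprived, for names at 1 or more in either library.

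No test was run, since each condition has 1 library. Intervals are 95% Wilson, exact Poisson or order-statistic intervals. The limit that a 0 allows, if it is a plain count, is 3 reads of the total. The members and lists were chosen with earlier results of these data known. The rule named members above 0 in the glucose-deprived library, the 12 highest and 3 lowest in the glutamine-deprived library, the 3 with most rows and those without a protein. Naming all 30 members, and a few names without a value, was decided after the values were seen. From each companion list the rule named those above 0 in the glucose-deprived library and the 4 highest in the glutamine-deprived library. Promoter motifs were chosen after the data were seen. The table of the whole series repeats these values and was left out. Python 3.11.15, pandas 2.3.3, numpy 2.4.6 and scipy 1.17.1 were used, and the step and fold calculations were tested on simulated data. The simulated steps were drawn from the fitted ones, and the simulated folds among high names in libraries of equal level. That setting is unlike the members' and bears on the code only.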

Additional observations from a re-analysis of the deposited data

How the results depend on the processing

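With 1 library per condition, leaving out a replicate was not possible. No paired analysis was possible because the labels give no replicate numbers and each condition has 1 library. As reported, 29 names were higher by 2-fold or more in the glutamine-deprived library and 1 in the glucose-deprived library, with a median log2 ratio of 4.13. Centred on the median over all names, which by itself evens out the sides, the counts were 7 and 8 and the median -0.18. With a minimum of 1 in both libraries only MRPL38 was left, so the counts were 0 and 1 and the median -1.76. A pseudocount of 0.1 gave a median of 7.38. A threshold of 4-fold left 0 names higher in the glucose-deprived library. By single transcript rows, 48 were above 0 and 48 higher by 2-fold or more in the glutamine-deprived library, with a median of 3.49. The share of recovered reads in the glutamine-deprived library, 0.0748%, was 0.0667% for protein-coding names, 0.122% without the most abundant name and 0.0702% without MRPL38, added once the values were known. MRPL38 was higher in the glucose-deprived library under every scaling, filter and pseudocount tried, with log2 ratios from -6.14 to -1.76. A name of few reads can be missed in the glucose-deprived library, and the part of depth in its listed 0 values was not tested.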
